A study of Mus musculus with 9 samples.

Results

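The carboxylesterases are the genes described here: Ces1c, Ces1d, Ces1e, Ces1f, Ces1g, Ces2a, Ces2c, Ces2e, Ces3a and Ces3b, taken by symbol from the table of gene counts. They are 10 of the 55401 genes listed and 10 of the 20 carboxylesterase genes listed, and all 10 had enough reads to be tested, along with 15717 genes in all. Whole liver of female mice was sequenced in 3 groups of 3 livers, named healthy (replicates 1, 2 and 3), untreated HCC and miR-22-treated HCC (replicates 2, 3 and 4 of each), where HCC is hepatocellular carcinoma. The comparisons ask how the liver transcriptome differs in RAS/AKT-driven HCC, and how it differs when such livers receive miR-22.

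Healthy livers are labelled wild type and untreated, as a baseline, and the growth protocol, which is the same for every sample, gives the mice as obtained at 6 weeks of age. Both HCC groups are labelled wild type with HCC. Per the methods, the tumors of the sequenced livers came from plasmids for myristoylated AKT and NRAS, put into hepatocytes of mice aged 6 weeks by tail vein hydrodynamic injection with the Sleeping Beauty transposase. The growth protocol of the labels lists a β-catenin plasmid beside these. At week 1 after the oncogenes, untreated HCC mice received a blank AAV8 vector and miR-22-treated HCC mice received AAV8 with miR-22 behind a CMV promoter, which is not limited to hepatocytes. Livers were taken at week 5, 4 weeks after the vector. The labels give no injection, vector or harvest week for the healthy mice, so their age at harvest is not known here, and tumor, hydrodynamic injection, vector and age cannot be told apart in any comparison with them. The sample labels give the strain as C57BL/6 and the growth protocol and methods give it as FVB/N. Nothing in the labels names the animal behind each library, and p-values measure the spread between these samples.

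Carboxylesterases are serine hydrolases that cleave ester, amide and thioester bonds. In liver most of them sit in the lumen of the endoplasmic reticulum, where they hydrolyze drugs and prodrugs as well as acylglycerols and cholesteryl esters, and some take part in the release of stored triacylglycerol for very-low-density lipoprotein (VLDL). Mice carry several tandem copies where humans have a single gene, and many of the copies are strongly expressed in hepatocytes.

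All 20 listed genes lie on chromosome 8 (GENCODE annotation on GRCm39) in 2 tandem clusters. The cluster with Ces1 genes and Ces5a spans chr8:93746842-94262458 on the minus strand and holds 9 of the genes, 5 of them described here: Ces1c (ENSMUSG00000057400.14, chr8:93825643-93857942), Ces1d (ENSMUSG00000056973.6, chr8:93892693-93924466), Ces1e (ENSMUSG00000061959.13, chr8:93927846-93956247), Ces1f (ENSMUSG00000031725.8, chr8:93981999-94006375) and Ces1g (ENSMUSG00000057074.6, chr8:94028683-94063953). The cluster with Ces2 and Ces3 genes and Ces4a spans chr8:105460630-105876741 on the plus strand and holds the other 11 genes, including Ces2a (ENSMUSG00000055730.16, chr8:105460630-105468266), Ces2c (ENSMUSG00000061825.10, chr8:105573700-105581115), Ces2e (ENSMUSG00000031886.14, chr8:105652848-105661304), Ces3a (ENSMUSG00000069922.12, chr8:105775223-105789243) and Ces3b (ENSMUSG00000062181.14, chr8:105810253-105820561). The 10 genes have 12 to 14 exons each. Their coding sequences were 74.5% (Ces1c and Ces1f) to 95.3% (Ces3a and Ces3b) identical within a subfamily and 59.0% to 62.3% identical between subfamilies.

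Such likeness limits how reads can be assigned. Of the 31-base words of the transcripts, 42.3% in Ces3a and 35.1% in Ces3b occur in the other, so the split of reads between Ces3a and Ces3b is uncertain. Ces2c shared 56.7% of its words with other listed genes, 50.2% with the pseudogene Ces2d-ps, which had 0 to 8 counts per library. Ces2a shared 32.8%, mostly with the predicted gene Gm7208, which had 0 counts in every library. Ces1c shared 29.4%, mostly with Ces1b. For Ces1d, Ces1e, Ces1f, Ces1g and Ces2e the share was between 3.80% and 8.66%.

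The agent given was miR-22, so its mature strand and the only match to its seed in a 3′ UTR of the 10 genes are shown. From RefSeq (GRCm38.p6) the mature strand is at chr11:75463772-75463793, plus strand, with bases 2 to 8, the seed, in capitals.
mmu-miR-22-3p: aAGCUGCCaguugaagaacugu
The match is the only one in Ces1g and lies at chr8:94028760-94028789 (GRCm39, minus strand), with the letters GGCAGCT, complementary to the seed, in capitals.
Ces1g 3′ UTR site: atcaaccgggtgagaGGCAGCTggattagc
A GGCAGCT match was present in the 3′ UTR of 1 of the 10 genes and of 14.1% of 20828 protein-coding genes. A match is a description of letters, not a measured binding site.

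Promoters are shown for the subfamily whose members differed most from each other, Ces2, and for Ces3b, which had the largest fold changes of the 10 in untreated HCC and with miR-22. They are the 100 bases before the start of transcription from RefSeq (GRCm38.p6), which had a promoter for 7 of the 10 genes. Capitals mark TATAAA, the nuclear receptor motif AGGTCA, the HNF1 motif GTTAAT or the C/EBP motif TTGCNNAA, searched on both strands. The letters may overlap where motifs do.
Ces2a (chr8:104733903-104734002, plus strand): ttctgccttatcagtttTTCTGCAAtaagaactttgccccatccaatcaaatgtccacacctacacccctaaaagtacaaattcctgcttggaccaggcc
Ces2c (chr8:104846968-104847067, plus strand): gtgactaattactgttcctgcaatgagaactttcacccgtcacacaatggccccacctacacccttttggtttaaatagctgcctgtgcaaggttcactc
Ces2e (chr8:104926160-104926259, plus strand): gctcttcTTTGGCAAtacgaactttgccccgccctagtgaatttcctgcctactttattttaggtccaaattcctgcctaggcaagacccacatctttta
Ces3b (chr8:105083655-105083754, plus strand): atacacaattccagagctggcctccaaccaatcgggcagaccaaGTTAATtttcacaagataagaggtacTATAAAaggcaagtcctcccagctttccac
The Ces2a window was 69.5% identical to that of Ces2c and 66.3% to that of Ces2e, and the windows of Ces2c and Ces2e were 63.0% identical. Over 250 bases before the start, TTGCNNAA was found in Ces1c, Ces2a and Ces2e (9.56% of 32851 promoters held it), TATAAA in Ces1g and Ces3b (12.4%), AGGTCA in Ces2a (14.0%) and GTTAAT in Ces3b (6.43%). TGTTTAC (3.17%), TTGCGCAA (0.164%) and the direct repeat motif of HNF4 (0.0335%) were in none of the 7 windows, which says only that these letters are not there.

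Libraries held 16664659 to 23908392 counts, and the ranges of the groups overlapped. The 10 genes together took between 0.671% and 0.761% of the counts of a healthy liver, between 0.191% and 0.276% of those of an untreated HCC liver and between 0.389% and 0.474% of those of a miR-22-treated one. The liver label fits its markers: the summed level of 10 hepatocyte markers, in CPM (counts scaled to a common library size after TMM normalization, as all levels below), ranged from 153500 to 167800 when healthy, from 93140 to 109100 when untreated and from 121300 to 136100 when treated. In bulk tissue, fewer hepatocytes and less RNA per hepatocyte cannot be told apart. The summed level of 5 cholangiocyte markers ranged from 29.4 to 41.9 CPM when healthy, from 3324 to 6213 CPM when untreated and from 1562 to 2700 CPM when treated, and that of 6 stellate cell markers from 84.5 to 95.8, from 413.7 to 503.7 and from 243.7 to 337.9 CPM. Spp1 (osteopontin) made up most of the cholangiocyte sum, with group means of 26.8, 4620 and 2017 CPM. By edgeR, Sox9 (28.6-fold, adjusted p = 8.26e-08), Epcam (12.4-fold, adjusted p = 5.03e-07) and Krt7 (3.17-fold, adjusted p = 0.00239) were also higher in untreated HCC. With miR-22 Sox9 (2.97-fold) and Epcam (1.95-fold) were lower and Krt7 was not called. The keratin Krt19 was at means of 2.15, 3.96 and 3.86 CPM and was not called in any comparison. The collagens Col1a1 (5.78, 192.4 and 99.9 CPM) and Col1a2 (16.6, 199.7 and 120.5 CPM) carried most of the rise of the stellate sum. Acta2 (2.86, 19.4 and 13.0 CPM) and Pdgfrb (14.8, 39.4 and 29.2 CPM) also had higher means in both HCC groups. Lrat was 2.82-fold lower in untreated HCC (adjusted p = 0.00134 by edgeR) and 2.15-fold higher with miR-22 (adjusted p = 0.0239), and Des was not called. The part of these shifts in the results below was not tested beyond a scaling to the hepatocyte markers.

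In untreated HCC most carboxylesterase transcripts fell. Compared with healthy livers, 8 of the 10 genes were lower (Ces1c, Ces1d, Ces1e, Ces1f, Ces1g, Ces2a, Ces3a and Ces3b), where 18.1% of all tested genes were lower, and 1 was higher (Ces2c), where 22.7% of all tested genes were higher. Ces2e did not meet both criteria, an adjusted p under 0.05 by edgeR's quasi-likelihood test and a fold change over 1.5. The median log2 fold change was -2.12 for the 10 genes and 0.01 for all tested genes. The summed level of the 10 was between 7700 and 8804 CPM in healthy livers and between 1568 and 2466 CPM in untreated HCC, whose mean was 23.0% of the healthy mean.

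With miR-22 the same 8 genes that were lower in untreated HCC were higher than in untreated HCC, where 8.32% of all tested genes were higher. None of the 10 was lower, where 5.47% of all tested genes were, and by edgeR at an unadjusted p under 0.05, or by DESeq2, the number lower was also 0. Ces2c and Ces2e were not called. The median log2 fold change was 1.26 for the 10 genes and 0.00 for all tested genes. The summed level was 3785 to 5039 CPM, with a mean of 54.0% of the healthy mean. This comparison shares the untreated livers with the one before it, so opposite signs in both are not independent of each other.

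Set against healthy livers, miR-22-treated HCC still had lower levels of 7 of the 10 genes, where 7.05% of all tested genes were lower, and a higher level of Ces2c, where 16.9% of all tested genes were higher. Ces2e and Ces3a were not called. When the fold change itself was tested against 1.5 (edgeR's glmTreat), Ces1c, Ces1f, Ces3b and Ces2c were no longer called, which left 4 lower genes. The median log2 fold change was -1.03 for the 10 genes and 0.02 for all tested genes.

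**Figure D1:**
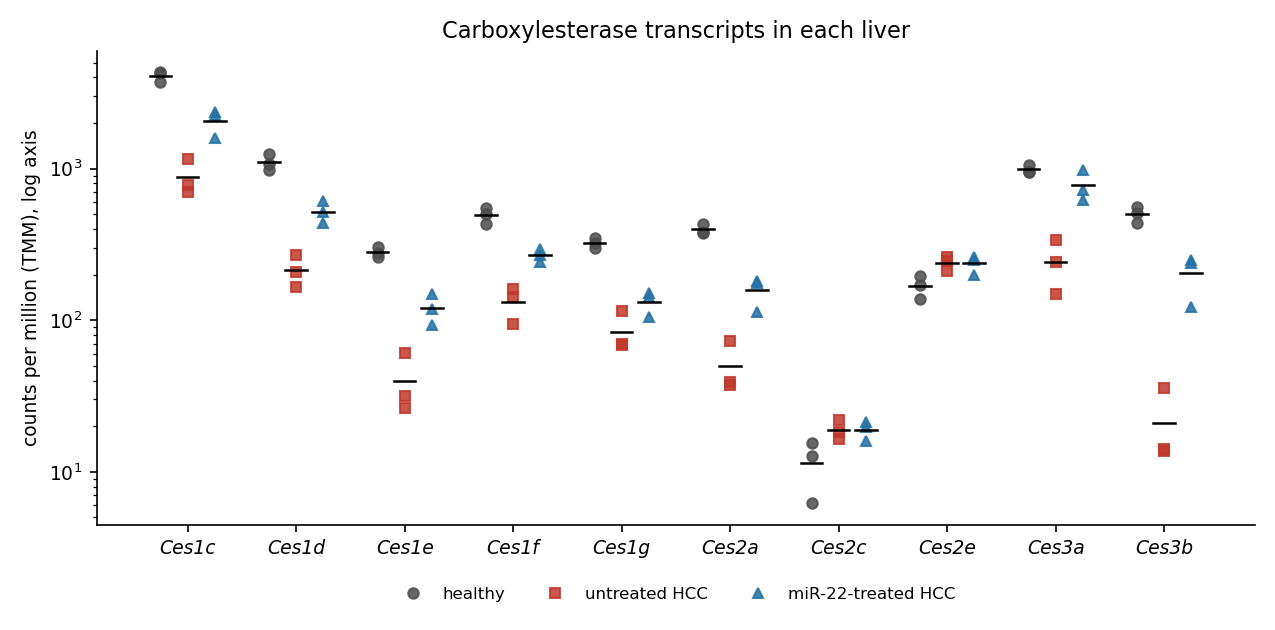
Level of each of the 10 genes in each of the 9 livers (vertical log axis, CPM, TMM-normalized; 1 point per liver, short line at the group mean). In Ces1c, Ces1d, Ces1e, Ces1f, Ces2a, Ces3b and Ces3a every untreated HCC liver lies below every miR-22-treated liver. In Ces1g, Ces2e and Ces2c the untreated and treated livers overlap. The share of all tested genes with such a separation was not counted.

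The order of levels can be compared between genes only per length, here CPM per kilobase of the canonical transcript. In healthy livers Ces1c stood first at 2189 CPM per kilobase, followed by Ces1d (547.9) and Ces3a (480.7), whose livers overlapped. Ces2a (201.8), Ces3b (197.7) and Ces1f (176.7) followed, each overlapping the next, then Ces1e (135.8) and Ces1g (119), which also overlapped. Ces2e (61.4) and Ces2c (5.83) came last and overlapped neither each other nor Ces1g.

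In untreated HCC the order was different below Ces1c, which stayed first at 469.3 CPM per kilobase. Ces2e, at rank 9 in healthy livers, stood at rank 4 with 87.4 and overlapped Ces1d (107.2), which overlapped Ces3a (118.2). Ces3b, at rank 5 in healthy livers, was last with 8.33 and overlapped Ces2c (9.58). In miR-22-treated HCC Ces3b was at rank 6 with 80.2, between Ces2e (86.6) and Ces2a (79.8), and these 3 overlapped as neighbors.

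Ces1c encodes the carboxylesterase that mouse liver secretes into plasma. It was the most abundant of the family, at 3707, 4320 and 4262 CPM in the healthy livers, 704.4, 778.3 and 1152 CPM in the untreated HCC livers and 2368, 2264 and 1595 CPM in the miR-22-treated HCC livers. The 3 groups did not overlap. The log2 fold change was -2.22 (SE 0.21, adjusted p = 1.96e-06 by edgeR) in untreated HCC against healthy, 1.24 (SE 0.20, adjusted p = 0.00124) in miR-22-treated against untreated HCC and -0.98 (SE 0.20, adjusted p = 0.00226) in miR-22-treated HCC against healthy.

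Ces1d encodes the triacylglycerol hydrolase that mobilizes stored lipid for VLDL. Its level was 974.6, 1240 and 1079 CPM in healthy livers, 207.5, 166.5 and 270.5 CPM in untreated HCC and 435.7, 517.4 and 610.5 CPM in miR-22-treated HCC. Again no groups overlapped, and the highest treated liver was replicate 4, which was the lowest for the other 7 falling genes. It fell by 2.35 on the log2 scale in untreated HCC (SE 0.19, adjusted p = 5.41e-07), a 5.11-fold difference, and was higher by 1.28 with miR-22 (SE 0.18, adjusted p = 0.000631). Against healthy livers the treated livers were lower by a log2 fold change of -1.07 (adjusted p = 0.00059).

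Ces1e encodes egasyn, which holds β-glucuronidase in the endoplasmic reticulum. It was at 262.1, 305.3 and 277.5 CPM in healthy livers, at 31.7, 26.6 and 60.7 CPM in untreated HCC and at 118.6, 148.8 and 93.3 CPM in miR-22-treated HCC. The groups were separate, with untreated replicate 4 the nearest to the treated livers. Among the 5 Ces1 genes Ces1e had the largest point estimates in untreated HCC and with miR-22. Its log2 fold changes were -2.82 (SE 0.27, adjusted p = 2.15e-06), 1.59 (SE 0.26, adjusted p = 0.00121) and -1.23 (adjusted p = 0.00229) in the 3 comparisons in the order above. Its 95% interval in untreated HCC, -3.40 to -2.25, overlapped those of Ces1c and Ces1d.

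Ces1f and Ces1g encode further enzymes of the endoplasmic reticulum that act on neutral lipids. Ces1f was at 429.7, 551.4 and 498.8 CPM in healthy livers, 142.3, 94.0 and 160.4 CPM in untreated HCC and 269.1, 296.5 and 242.0 CPM in miR-22-treated HCC, with no overlap. Its log2 fold changes were -1.90 (SE 0.18, adjusted p = 1.96e-06), 1.03 (SE 0.17, adjusted p = 0.00157) and -0.87 (SE 0.17, adjusted p = 0.00185).

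Ces1g, the gene with the seed match, was at 298.0, 351.2 and 321.4 CPM in healthy livers, 69.6, 68.2 and 114.6 CPM in untreated HCC and 150.2, 142.7 and 105.3 CPM in miR-22-treated HCC. The HCC groups overlapped, since untreated replicate 4 lay above treated replicate 4. Ces1g fell by 1.94 on the log2 scale in untreated HCC (SE 0.20, adjusted p = 3.57e-06), and its difference with miR-22, 0.66 (SE 0.19, adjusted p = 0.0257, 95% interval 0.24 to 1.07), was the smallest of the 8 that were called. That call was lost without untreated replicate 2 (0.54, adjusted p = 0.11), untreated replicate 3 (0.52, adjusted p = 0.113), treated replicate 2 (0.55, adjusted p = 0.091) or treated replicate 3 (0.60, adjusted p = 0.0936). The same happened when only the HCC groups were fitted (0.65, adjusted p = 0.052). Against healthy livers the log2 fold change of the treated livers was -1.29 (adjusted p = 0.00026).

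The Ces2 subfamily did not move as 1 group. Ces2a, whose product hydrolyzes di- and triacylglycerol in liver, was at 377.2, 433.4 and 381.1 CPM in healthy livers, 37.2, 39.1 and 73.0 CPM in untreated HCC and 176.9, 181.1 and 113.3 CPM in miR-22-treated HCC, with no overlap. It fell by 2.99 on the log2 scale in untreated HCC (SE 0.25, adjusted p = 9.05e-07), a 7.97-fold difference. With miR-22 it was higher by 1.66 (SE 0.24, adjusted p = 0.000761), and the treated livers remained below the healthy ones at -1.34 (adjusted p = 0.000896).

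Ces2e, the most abundant of the 3 Ces2 genes per kilobase in untreated HCC, was at 137.9, 196.3 and 170.9 CPM in healthy livers, 260.8, 212.7 and 245.5 CPM in untreated HCC and 200.1, 249.1 and 263.0 CPM in miR-22-treated HCC. Every HCC liver was above every healthy liver, and the HCC groups overlapped widely. The log2 fold change was 0.51 (95% interval 0.20 to 0.82, adjusted p = 0.00872) in untreated HCC and 0.50 (95% interval 0.18 to 0.81, adjusted p = 0.017) in miR-22-treated HCC against healthy, both under the 1.5-fold limit. It passed that limit without healthy replicate 2 (0.63 and 0.61), without untreated replicate 3 in the first comparison (0.59) and without treated replicate 2 in the second (0.59). Between the HCC groups the difference was -0.01, with a 95% interval from -0.32 to 0.30, which leaves out a change of 1.5-fold in either direction with TMM normalization. With libraries scaled to hepatocyte markers instead, it was -0.49 (SE 0.17, adjusted p = 0.0253), within 1 SE of a 1.5-fold decrease.

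Ces2c, best known from intestine, was the lowest of the 10 in healthy livers, at 6.22, 15.5 and 12.7 CPM. It was at 21.8, 18.3 and 16.5 CPM in untreated HCC and at 16.0, 21.2 and 19.7 CPM in miR-22-treated HCC, above each healthy liver. The log2 fold change was 0.71 (SE 0.25, adjusted p = 0.0261) in untreated HCC and 0.72 (SE 0.25, adjusted p = 0.0388) in miR-22-treated HCC against healthy, and 0.01 between the HCC groups (95% interval -0.51 to 0.53).

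Both calls of Ces2c were lost when certain livers were left out, with the lowest estimates without healthy replicate 1. In untreated HCC against healthy it was not called without healthy replicate 1, the lowest liver (0.40, adjusted p = 0.0652), untreated replicate 2 (0.60, adjusted p = 0.0963) or untreated replicate 3 (0.74, adjusted p = 0.0509). In miR-22-treated HCC against healthy it was not called without healthy replicate 1 (0.41, adjusted p = 0.0915), healthy replicate 3 (0.79, adjusted p = 0.0693), untreated replicate 3 (0.72, adjusted p = 0.0526), treated replicate 3 (0.64, adjusted p = 0.104) or treated replicate 4 (0.69, adjusted p = 0.086). It was not called in the latter comparison when only its own groups were fitted (0.71, adjusted p = 0.0578).

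Ces3a and Ces3b, neighbors with nearly the same coding sequence, are the mouse counterparts of human CES3. Ces3a was at 952.9, 952.6 and 1060 CPM in healthy livers, 241.6, 149.7 and 338.0 CPM in untreated HCC and 728.1, 978.8 and 621.1 CPM in miR-22-treated HCC. Treated replicate 3 lay within the healthy range, and the treated and untreated livers were apart. Its log2 fold change was -2.02 in untreated HCC (SE 0.25, adjusted p = 1.94e-05) and 1.67 with miR-22 (SE 0.25, adjusted p = 0.00079). Against healthy livers the treated livers differed by -0.35 (adjusted p = 0.283), with a 95% interval from -0.87 to 0.17 that includes both 0 and a 1.5-fold decrease.

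Ces3b had the largest fold changes of the 10 in untreated HCC and with miR-22. It was at 554.5, 438.3 and 511.9 CPM in healthy livers, 13.7, 14.2 and 35.5 CPM in untreated HCC and 248.8, 239.3 and 122.0 CPM in miR-22-treated HCC. The groups were far apart, with untreated replicate 4 at more than any other untreated liver and treated replicate 4 at less than any other treated one. The log2 fold change was -4.56 (SE 0.38, adjusted p = 8.08e-07), a 23.6-fold difference, in untreated HCC, 3.26 (SE 0.36, adjusted p = 0.000164), a 9.57-fold difference, with miR-22 and -1.30 (SE 0.33, adjusted p = 0.00814) in treated against healthy livers. Without untreated replicate 4 the first difference was -5.17 and the second was 3.86 on the log2 scale for Ces3b, over 1.5 times larger as folds. The call in treated against healthy livers was lost with a replicate block in the edgeR fit (adjusted p = 0.0663) and with glmTreat (adjusted p = 0.0569).

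Per kilobase, the level of Ces3a ranged from 2.12 to 2.68 times that of Ces3b when healthy, from 11.8 to 21.8 times when untreated and from 3.61 to 6.28 times when treated. These ranges did not overlap, but they depend on how reads common to both genes were split. The ratio of Ces2a to Ces2e ranged from 3.08 to 3.81 when healthy and from 0.199 to 0.414 when untreated, with a median of 1.01 and a highest value of 1.23 when treated. The ratio of Ces1c to Ces1d overlapped between the groups, at 3.73 to 4.23, 3.64 to 5.01 and 2.80 to 5.82.

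**Figure D2:**
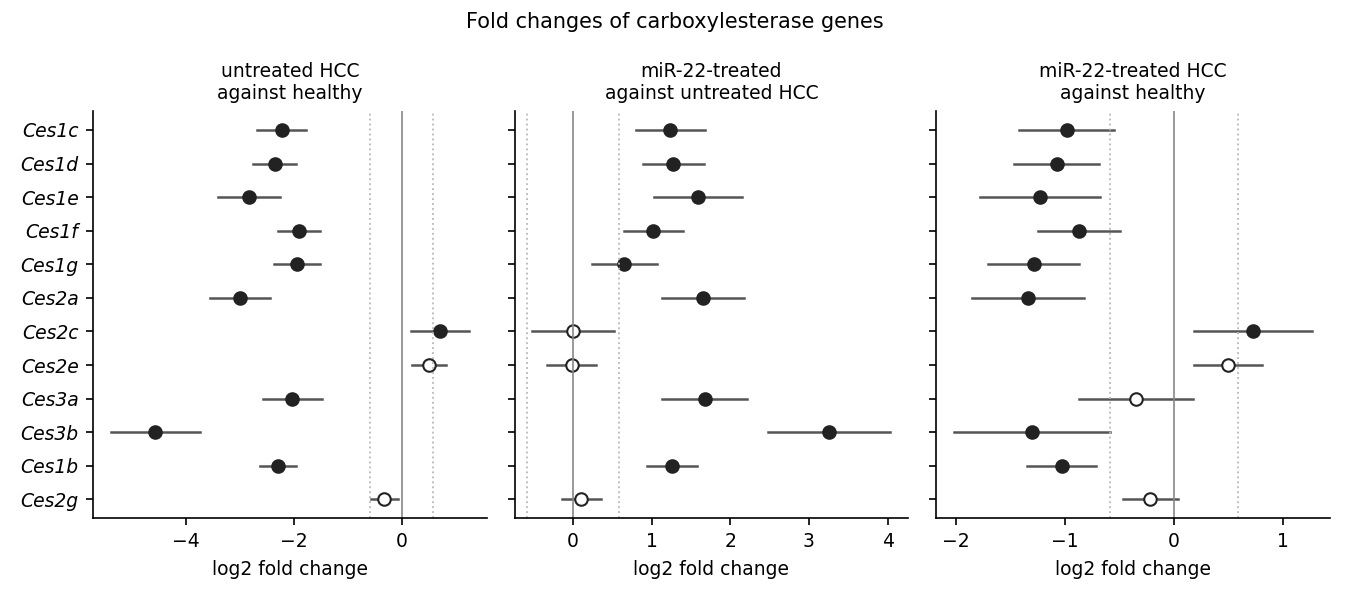
Log2 fold change of the 10 genes and of Ces1b and Ces2g in the 3 comparisons (point, estimate of edgeR's quasi-likelihood fit; bar, 95% interval; filled, called; open, not called; dotted lines, a fold change of 1.5). Ces3b lies farthest from 0 in the left and middle panels, at -4.56 and 3.26, and Ces2c and Ces2e lie on the other side of 0 from the called genes around them in the left and right panels.

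As a share of the counts of the 10 genes, Ces1c took 49.0% ± 0.79 (SD, n = 3) in healthy livers, 45.7% ± 4.56 in untreated HCC and 45.8% ± 4.13 in miR-22-treated HCC, ranges that overlapped. The make-up changed elsewhere. Ces2e took 2.00% ± 0.22 in healthy livers, 12.9% ± 2.63 in untreated HCC and 5.38% ± 1.40 in miR-22-treated HCC, with no overlap between any of the groups. Ces3b took 6.05% ± 1.11, 1.05% ± 0.34 and 4.42% ± 1.07, and only the treated and healthy ranges overlapped. Ces2a took 4.76% ± 0.27, 2.53% ± 0.41 and 3.45% ± 0.40. With 3 livers against 3, the exact two-sided permutation test cannot give a p below 0.1, and it gave that value for every difference named here as not overlapping.

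Shares also differed between the Ces3 genes. Ces3a took 11.9% ± 0.89 of the counts in healthy livers, 12.4% ± 2.48 in untreated HCC and 17.1% ± 2.07 in miR-22-treated HCC, where it was above both other groups (exact permutation p = 0.1 for each). Its share in untreated HCC overlapped that in healthy livers (exact permutation p = 0.6). By subfamily, Ces1 took 75.3% of the summed CPM in healthy livers, 70.2% in untreated HCC and 69.1% in miR-22-treated HCC, and Ces2 took 6.90%, 16.0% and 9.16%.

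**Figure D3:**
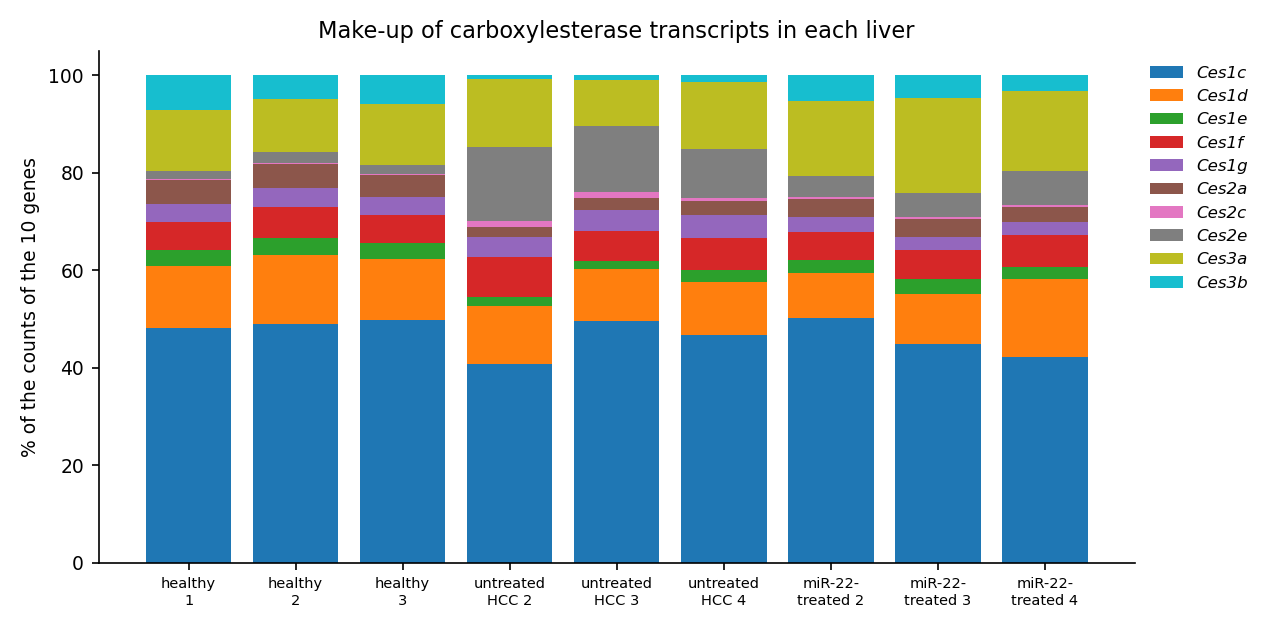
Share of each gene in the counts of the 10 genes (vertical axis, percent; 1 bar per liver, adding up to the whole). Ces1c is the largest block in every liver, Ces2e has a mean of 2.00% in healthy livers and of 12.9% in untreated HCC, and Ces3b has means of 6.05% and 1.05%.

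Of the other 10 carboxylesterase genes listed, 4 had enough reads to be tested. Ces1b, the closest relative of Ces1c, was at 381.4, 377.0 and 401.2 CPM in healthy livers, 61.3, 75.4 and 100.5 CPM in untreated HCC and 193.5, 193.4 and 181.4 CPM in miR-22-treated HCC. It fell by 2.29 on the log2 scale in untreated HCC (adjusted p = 1.38e-07), was higher by 1.26 with miR-22 (adjusted p = 0.000216) and stayed below healthy livers at -1.03 (adjusted p = 0.000175). Ces2g, which lies between Ces2f and Ces2h, differed little, with log2 fold changes of -0.33 (adjusted p = 0.0284, under 1.5-fold), 0.11 (adjusted p = 0.543) and -0.22 (adjusted p = 0.163).

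The rest of the family was at few reads. Ces4a had 28, 18 and 20 counts in healthy livers, 0, 1 and 6 in untreated HCC and 12, 10 and 13 in miR-22-treated HCC, and was called lower in untreated HCC (adjusted p = 0.000359) and higher with miR-22 (adjusted p = 0.0154). Without untreated replicate 3, 1 rather than 2 of the 4 tested relatives was called with miR-22. Ces2h had 3 to 22 counts per library and was not called in any comparison. Ces1a (1 to 13 counts per library), Ces1h (0 to 7), Ces2b (0 to 10), Ces2d-ps (0 to 8) and Ces2f (0 to 3) were not tested, and Ces5a had 0 counts in every library.

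Along the Ces1 cluster the 6 tested genes, Ces1b to Ces1g, all fell in untreated HCC and all were higher with miR-22. Along the other cluster Ces2a, Ces3a, Ces3b and Ces4a did the same. Of the 4 tested genes between Ces2a and Ces3a, Ces2c, Ces2e and Ces2g were not lower by the criteria used and were not called with miR-22. Ces2h, next to Ces3a, was at -1.35 in untreated HCC (adjusted p = 0.0976) and 1.35 with miR-22 (adjusted p = 0.156), on few reads and not called. This order was seen in these data and is given as a description.

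**Figure D4:**
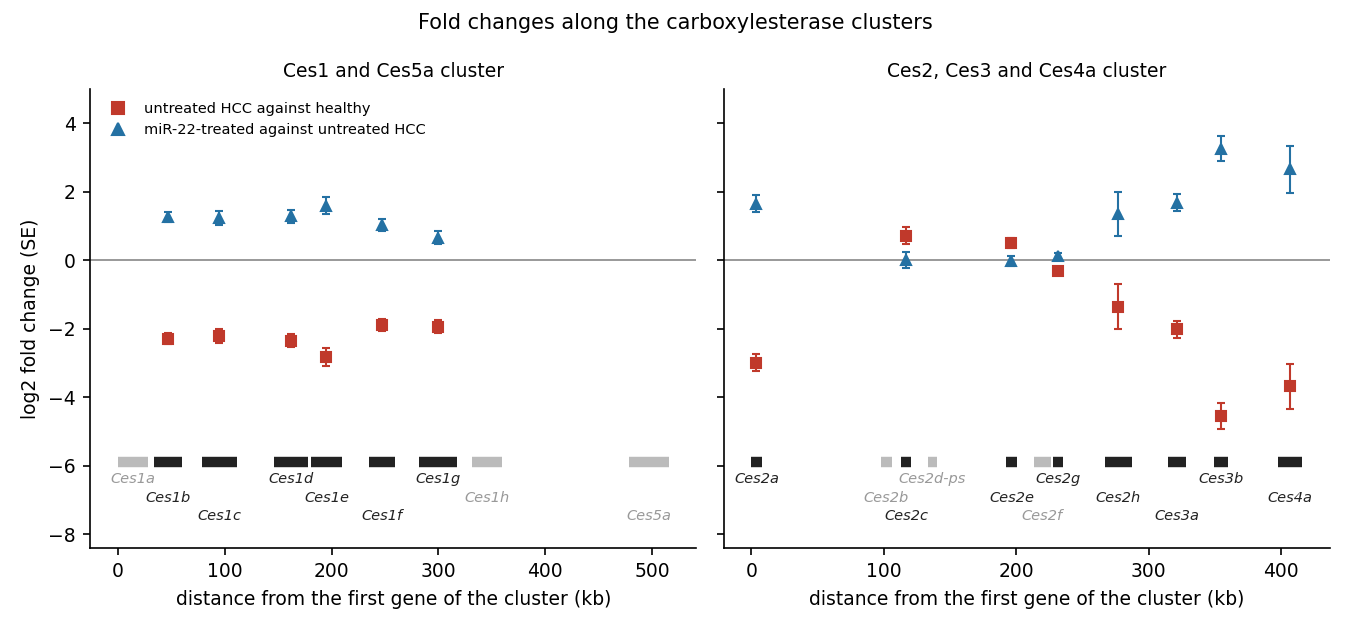
Log2 fold change (point, with SE) of the tested carboxylesterase genes against distance from the first gene of each cluster in kilobases; thick bars are gene bodies, dark where the gene was tested and pale where it was not. In untreated HCC against healthy, the right panel shows Ces2c, Ces2e, Ces2g and Ces2h at 0.71, 0.51, -0.33 and -1.35, between Ces2a at -2.99 and Ces3b at -4.56.

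Other genes next to the clusters were looked at after the values of the family were known. Within 200 kb, 19 protein-coding genes outside the family were tested, of which 5 were lower and 5 were higher in untreated HCC, and 2 were higher and 0 lower with miR-22 by edgeR. Of all tested genes, 18.1% were lower and 22.7% higher in untreated HCC, and 8.32% were higher and 5.47% lower with miR-22. The 2 neighbors higher with miR-22 were Phaf1 (1.57) and Pdp2 (0.99), the latter a pyruvate dehydrogenase phosphatase. Gm45909, a short transcript of unknown coding status inside Ces1d, had log2 fold changes of -4.23 and 3.10, and its reads cannot be told apart from those of Ces1d introns, since the libraries were not strand-specific.

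The tested genes whose level across the 9 livers lay closest to a carboxylesterase were found by the root mean square difference of log2 CPM, each centred on its mean. For the mean of the 10 they were Hrg (0.0763), which encodes histidine-rich glycoprotein, Ugt3a2 (0.0805), a UDP-glycosyltransferase, and Hsd11b1 (0.0865), which regenerates active glucocorticoid, over a range of 2.45 in the mean itself. For Ces1c they were Car5a (0.0363), a mitochondrial carbonic anhydrase, Pbld2 (0.0577) and Slc27a5 (0.0845), a bile acid CoA ligase. Ces2a lay closest to Slc10a1 (0.0918), the bile acid uptake transporter, Ces1e to Cyp2e1 (0.12), and Ces1f to Aadat (0.106).

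Ces1d lay closest to Sord (0.155), Ces1g to S1pr5 (0.099), Ces2e to Rsu1 (0.0675), Ces2c to the predicted gene Gm43197 (0.167) and Ces3a to the predicted gene Gm20319 (0.123). For Ces3b the closest were Sult5a1 (0.331), Mup2 (0.418) and Mup19 (0.45), of which the latter 2 encode major urinary proteins. The range of Ces3b itself was 5.33, against 1.79 for Ces2c and 0.931 for Ces2e. The differences are not scaled to these ranges, so they cannot be ranked between genes. These livers share 3 group means, so likeness of this kind rests mostly on the group differences.

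For every list below, the shares of all tested genes with TMM were 18.1% lower and 22.7% higher in untreated HCC. They were 8.32% higher and 5.47% lower with miR-22, and 7.05% lower and 16.9% higher in treated against healthy livers. Other lipid hydrolases were mixed. Of 17 tested, 6 were lower and 4 higher in untreated HCC than in healthy livers, with a median log2 fold change of -0.18, and 4 were higher and 1 lower with miR-22 than in untreated HCC. These 5 calls with miR-22 became 8 without untreated replicate 4, 2 without untreated replicate 3, 1 without treated replicate 3 and 3 without any one of the healthy livers, untreated replicate 2 or treated replicate 4. Lipc, hepatic lipase, was lower at -1.87 (adjusted p = 2.13e-06) and then higher with miR-22 at 1.22 (adjusted p = 0.000676). Lipe, hormone-sensitive lipase, was lower at -1.54 (adjusted p = 2.22e-05), and Mgll, monoacylglycerol lipase, was lower at -1.01 (adjusted p = 2.67e-05).

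Lpl, lipoprotein lipase, went the other way, at 2.80 in untreated HCC (adjusted p = 1.25e-07) and -0.64 with miR-22 (adjusted p = 0.0137). Pnpla3, which acts at the lipid droplet, was higher in untreated HCC at 1.14 (adjusted p = 0.000307). Pnpla2, adipose triglyceride lipase, was not called in any comparison, at 0.18, 0.25 and 0.42. In miR-22-treated HCC against healthy livers 2 of the 17 were higher (Lpl and Pnpla3) and 2 lower (Lipc and Lipe).

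Hydrolases of foreign compounds outside the family were mostly lower. Of 12 tested, 7 were lower and 1 higher in untreated HCC, with a median of -0.67, 4 were higher and 0 lower with miR-22, and 3 remained lower and 1 higher than healthy. With hepatocyte marker scaling 5 were called in either direction in untreated HCC and 2 with miR-22. On this scale 44.9% of all tested genes were higher and 8.02% lower in untreated HCC, and 3.71% higher and 31.2% lower with miR-22. Pon1, paraoxonase, was at -2.42 (adjusted p = 1.69e-06) and 2.83-fold higher with miR-22 (adjusted p = 0.000687). Cmbl, carboxymethylenebutenolidase, was at -1.71 and 0.85, and Bphl, a hydrolase of nucleoside prodrugs, at -1.63 and 0.71, all called. Aadac, arylacetamide deacetylase, which acts on many of the same substrates, was lower at -0.72 (adjusted p = 0.000113) and at 0.49 with miR-22, under 1.5-fold. Ephx1, microsomal epoxide hydrolase, was the single gene that was higher, at 1.24 (adjusted p = 7.8e-06).

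Genes of VLDL assembly form the step that uses lipid released by Ces1 enzymes. Of 9 tested, 5 were lower in untreated HCC, 1 was higher with miR-22 and 1 remained lower than healthy, with medians of -0.60, 0.44 and -0.17. The number called with miR-22 was 2 without untreated replicate 2 or treated replicate 2 and 3 without untreated replicate 4. With hepatocyte marker scaling 1 of the 9 was called in either direction in untreated HCC, beside 44.9% higher and 8.02% lower of all tested genes. Dgat2, which makes triacylglycerol, was the gene called in all 3 comparisons, at -1.44, 0.67 and -0.77. Mttp, the lipid transfer protein of VLDL, was at -0.48 (adjusted p = 0.00387, under 1.5-fold), 0.30 and -0.17.

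Transcription factors and receptors known to act on carboxylesterase or drug metabolism genes were mostly lower in untreated HCC, 10 of 14, with 1 higher, and with miR-22 5 were higher and 0 lower. The number called with miR-22 was 8 without untreated replicate 4 or without treated replicate 4. With libraries scaled to hepatocyte markers 5 of the 14 were called in either direction in untreated HCC, beside 44.9% higher and 8.02% lower of all tested genes. Nr1i3, the constitutive androstane receptor (CAR), fell by 2.91 on the log2 scale (adjusted p = 9.05e-07) and was higher by 1.59 with miR-22 (adjusted p = 0.000871). Ppara, the fatty acid receptor, was at -1.92 and 1.44, the growth hormone receptor Ghr at -1.88 and 1.10, and Nr1i2, the pregnane X receptor (PXR), at -1.11 and 0.82, all called. Hnf4a was lower at -0.71 (adjusted p = 0.00039) and not called with miR-22 at 0.30. Nfe2l2, which encodes NRF2, was the single factor that was higher, 2.26-fold (adjusted p = 6.26e-06).

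Of these 14 genes, 3 remained lower and 1 higher in miR-22-treated HCC than in healthy livers, among them Nr1i3 at -1.32 and Nfe2l2 at 0.59. The 6 listed targets of CAR and PXR were all lower in untreated HCC and all higher with miR-22, with medians of -1.92 and 1.44, and 3 remained lower than healthy. Cyp2b10, the best known CAR target, was at -4.39 and 3.11, Por, the electron donor of cytochromes P450, at -2.52 and 1.85, and Cyp2c29 at -2.46 and 1.21. No binding was measured, and how any of these factors acts on the carboxylesterases was not tested.

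**Figure D5:**
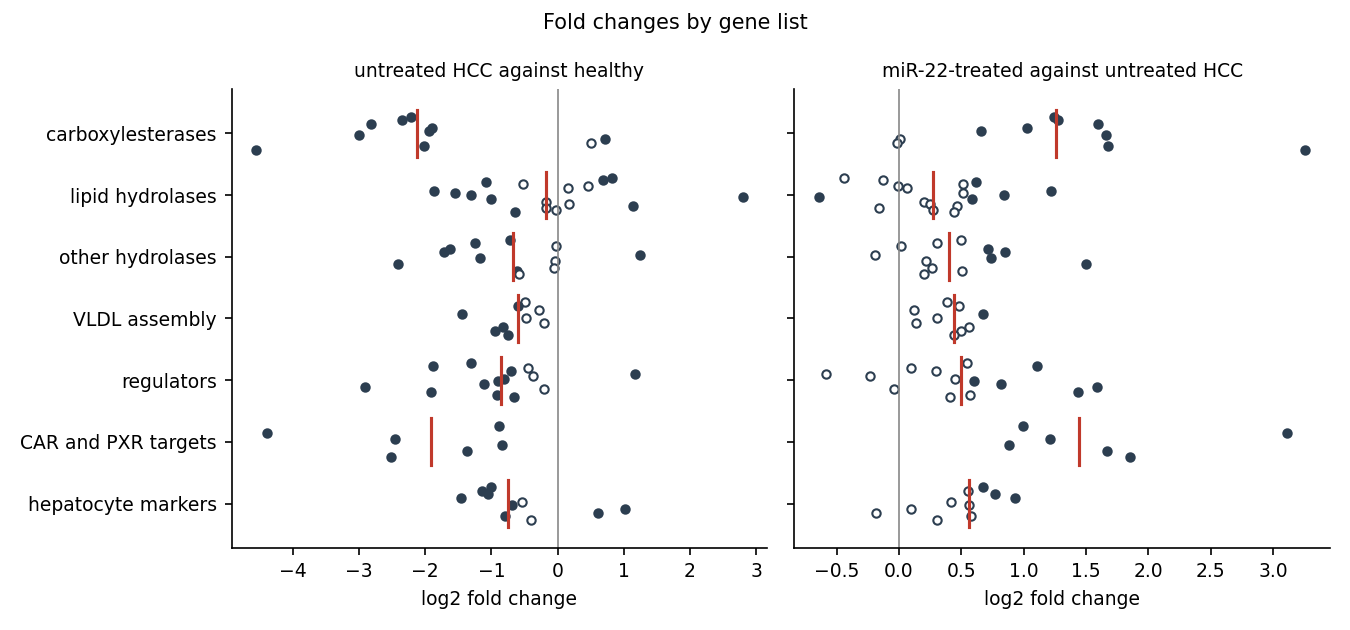
Log2 fold change of each tested gene by list in untreated HCC against healthy (left) and miR-22-treated against untreated HCC (right); 1 point per gene, filled where called, vertical line at the list's median. The carboxylesterase medians are -2.12 and 1.26, and those of the CAR and PXR targets are -1.92 and 1.44.

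Of the 10 hepatocyte markers, 6 were lower and 2 higher in untreated HCC, with a median of -0.74, and 3 were higher and 0 lower with miR-22, with a median of 0.56. The fit was therefore repeated with libraries scaled to equal hepatocyte markers, which moved the median of all genes to 0.56, -0.47 and 0.10 in the 3 comparisons. In untreated HCC the same 8 genes stayed lower, from -1.38 (Ces1f) to -4.06 (Ces3b), and Ces2e at 1.04 (adjusted p = 3.84e-05) joined Ces2c at 1.24 among the higher ones, where 8.02% of all tested genes were lower and 44.9% higher on this scale. With miR-22, 6 genes were higher, from 0.78 (Ces1c) to 2.83 (Ces3b), Ces1f was under 1.5-fold at 0.57, and Ces1g was not called at 0.20 (adjusted p = 0.308), where 3.71% of all tested genes were higher and 31.2% lower. On this scale Ces2c was at -0.48 (adjusted p = 0.128) and Ces2e at -0.49 (adjusted p = 0.0253, under 1.5-fold) with miR-22.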

How the data were processed

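RNA-seq of whole liver was analysed for 9 libraries, 3 per group, grouped by the sample labels. Per the methods, libraries were non-directional and read in pairs, and the authors quantified reads with Salmon, summed them per gene and used DESeq2; the processing notes also name FastQC 0.11.7 and DESeq2 1.18. The deposited counts are whole numbers per gene, not normalized, and a table of normalized values was not used. The build is named as GRCm39, and gene models here come from GENCODE vM39 on GRCm39, matched by identifier.

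edgeR 4.0.16 in R 4.3.3 was run on the counts (TMM, filterByExpr, the quasi-likelihood test, two-sided, with all 3 groups fitted together). A gene was called at a Benjamini-Hochberg adjusted p under 0.05 over all 15717 tested genes and a fold change over 1.5. Intervals are at 95% and cover the spread between livers. Depth and scatter limit genes of few counts, and the common dispersion was 0.0206. Replicate pairs differed by more than sampling noise (chi-square per degree of freedom 6.13 to 28.4). The script was tested on simulated data.

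The members and lists were chosen with earlier results of these data known. Named genes were the 10 genes, their relatives with at least 10 counts in total (Ces5a with 0 counts is named for completeness), up to 4 genes with the smallest p per list and comparison with 8 preset genes, and the 3 genes nearest in level, of which some are named. Alternatives covered normalization, tool, filter, groups fitted, threshold, a replicate block and leaving out each liver. Lists of other cell types were marker lists for cholangiocytes and stellate cells, macrophages, endothelial cells, neutrophils, lymphocytes, adipocytes and acinar cells.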

Additional observations from a re-analysis of the deposited data

How the results depend on the processing

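Of 600 checks of a single gene's log2 fold change under another setting, 554 kept direction and side of the threshold, 27 lost a call and 7 gained one. The 12 that changed sign were Ces2c and Ces2e with miR-22 against untreated HCC, where the estimates were near 0: Ces2c was at -0.0326 with upper-quartile scaling, -0.0193 with DESeq2 size factors, -0.0202 with DESeq2's test, -0.00902 with 10 counts required in every library and -0.48 with hepatocyte marker scaling, and leaving out a liver gave -0.0824 to 0.124 for Ces2c and -0.0952 to 0.0927 for Ces2e. The number of the 10 genes called in miR-22-treated HCC against healthy fell from 8 to 4 when the fold change itself was tested against 1.5 (glmTreat), since Ces1c, Ces1f, Ces2c and Ces3b no longer passed. The 4 left were lower, as were 1.87% of all tested genes by glmTreat. With miR-22 glmTreat ended the calls of Ces1f and Ces1g. The number of genes called in a list moved by over 1.5 times in 13 checks and did not in 47 for lipid hydrolases, in 10 and 50 for VLDL assembly, in 7 and 53 for transcription factors and receptors, in 5 and 55 for the other carboxylesterases, in 3 and 57 for other hydrolases of foreign compounds, and in 2 and 58 for CAR and PXR targets.

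With each liver left out, the number of the 10 genes called ranged from 8 to 10 for untreated HCC against healthy, from 7 to 8 for treated against untreated HCC and from 7 to 9 for treated HCC against healthy. Of 240 checks of a share, 9 changed sign, all where group ranges overlapped, and the cause was not tested. Per transcript length the difference of Ces1c with miR-22 was -0.82 percentage points, and leaving out a liver gave -2.40 to 2.08. Likewise it gave -1.44 to 2.01 for Ces1d with miR-22, -3.35 to 0.0895 for Ces1d and -0.0888 to 0.298 for Ces1f in treated against healthy livers, and -0.22 to 1.98 for Ces3a in untreated HCC.

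HCC livers with the same replicate number deviated in opposite directions (r from -0.235 to -0.121 for the 3 pairs). Deviations were taken from each group's own mean, so these values depend on each other. They cannot decide whether the numbers pair the samples. With a replicate block, 8 genes were called in untreated HCC against healthy, 7 with miR-22 against untreated HCC and 6 in miR-22-treated HCC against healthy. These were 8 lower, 7 higher and 6 lower genes, where 16.5%, 7.17% and 5.55% of all tested genes were called in that direction. The calls that ended were those of Ces2c in both comparisons with healthy livers (adjusted p = 0.0933 and 0.13), Ces1g with miR-22 (adjusted p = 0.0726) and Ces3b in treated against healthy livers (-1.27, adjusted p = 0.0663). Hepatocyte marker scaling moved the share of higher genes among all called genes from 55.7% to 84.9% in untreated HCC and from 60.4% to 10.6% with miR-22. Over all genes, calls with miR-22 numbered 1308 higher and 859 lower, 2140 and 1637 without a fold limit, 413 and 55 with glmTreat, and 1018 and 415 without treated replicate 3. In treated against healthy livers they were 2664 and 1108, 3359 and 2373, and 1716 and 294 for the first 3 of these settings.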

Other observations

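The other marker lists gave these summed levels, in CPM, for healthy livers, untreated HCC and miR-22-treated HCC in that order. Endothelial markers were at 291.6 to 368.2, 168.1 to 222.6 and 236 to 303.8, and macrophage markers at 241.5 to 293.7, 223.5 to 256.6 and 278 to 291.6. Neutrophil markers were at 0.252 to 1.70, 7.10 to 9.72 and 6.51 to 10.9, and lymphocyte markers at 3.30 to 4.46, 3.85 to 6.22 and 3.51 to 5.03. S100a8 (group means of 0.236, 2.42 and 2.77) and S100a9 (0.540, 6.06 and 4.99) made up most of the neutrophil sum. Its other members, Ly6g, Mpo and Elane, had too few reads to be tested. Adipocyte markers were at 3.59 to 5.11, 22.2 to 28.8 and 15.2 to 24.5. Fabp4 (group means of 4.11, 21.4 and 18.6) and Cidea (0, 3.01 and 2.30) carried that rise. Adipoq (0.241, 0.0125 and 0.196), Plin1 (0.0838, 0.0125 and 0.219) and Lep were at very few reads and did not rise in untreated HCC. Acinar markers were at 0.275 to 0.817, 0.896 to 11.4 and 0.761 to 321, the last from 1 treated liver. Their part in the results on the carboxylesterases was not tested.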
